A study of Mus musculus with 16 samples.

Results

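The question addressed here was whether time of day (TOD) changed the transcriptional response of the mouse cortex to bacterial lipopolysaccharide (LPS), gene by gene. The comparison used 16 of the 16 samples of the series, each one a bulk RNA-Seq library of the cortex of 1 wild-type C57Bl6 male mouse 2 months old. Mice received LPS at 2 mg/kg or phosphate-buffered saline (PBS) intraperitoneally on 2 consecutive days, either at ZT1, an hour after lights on, or at ZT13, an hour after lights off, and were harvested on the next day at the same ZT. The 4 groups held 3 ZT1 PBS mice, 5 ZT1 LPS mice, 3 ZT13 PBS mice and 5 ZT13 LPS mice. No genetic manipulation was made in any group, and the clock time of injection and the clock time of harvest cannot be told apart in this design.

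The values were CPM, the reads of a gene scaled to the same library total. The TOD × treatment interaction of a gene was the LPS response at ZT13 minus the LPS response at ZT1, both on the log2(CPM + 0.5) scale. It is the same number as the time difference in LPS-treated mice (ZT13 minus ZT1, the LPS part) minus the time difference in PBS-treated mice (the PBS part). The PBS part and the LPS part came from different mice. All tests were limma's moderated test across 18859 genes with Benjamini-Hochberg adjustment and a threshold of 0.05.

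The libraries held 20251840 to 29112758 reads on genes, as estimated from the size of 1 read in the CPM values. The titles set the groups, since the submitters' own treatment field disagreed with the title for 12 of 16 samples. The measured levels followed the titles for treatment in all mice and for time in the PBS mice. *Lcn2*, an acute phase gene, was at most 0.197 CPM in the 6 PBS mice and 107 to 418 CPM in the 10 LPS mice. *Arntl*, the clock activator BMAL1, was 38.6, 39.4 and 39.3 CPM in ZT1 PBS mice and 23.9, 25.8 and 27.3 CPM in ZT13 PBS mice. In LPS mice *Arntl* overlapped between the times (29.9 to 37.2 CPM at ZT1 and 27.8 to 32.8 CPM at ZT13). It therefore does not check the times of the LPS mice. As for the tissue label, the neuronal markers *Snap25* and *Slc17a7* averaged 1225 to 1306 CPM and 1197 to 1360 CPM over the 4 groups, and the astrocyte marker *Aldoc* 583 to 622 CPM. The summed level of endothelial markers, measured per mouse, is given beside the endothelial genes below.

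The circadian clock is a transcriptional loop in which CLOCK and BMAL1 drive their own repressors, among them the PER, CRY and CIART proteins, and in which REV-ERB proteins such as NR1D2 repress *Arntl*. The same activators drive output genes such as *Dbp*, and daily glucocorticoid secretion adds a second rhythm to many tissues. LPS binds Toll-like receptor 4 and triggers an innate immune response in which the endothelial cells of brain vessels, joined by tight and adherens junctions and resting on a basement membrane of type IV collagen and laminin, take part. Brain endothelium carries its own clock.

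The interaction passed the threshold for 30 of 18859 genes, which is 0.159% of the genes tested. In 23 genes (0.122%) the LPS response was higher at ZT13 and in 7 genes (0.0371%) it was lower. Of the 23 genes with a higher response, 11 were on the endothelial lists used here, which hold 0.440% of the genes tested and were chosen with earlier results of these data known, and the genes with a lower response included the clock genes *Ciart*, *Dbp* and *Nr1d2*. All 23 higher genes had the same shape. Their PBS part was below 0, their LPS part was above 0, and the medians were -0.46 for the PBS part and 0.36 for the LPS part. All 7 lower genes had a PBS part above 0 with a median of 0.84, whereas their LPS part had a median of 0.11 and was above 0 in 4 genes and below 0 in 3. These parts are descriptions, since the genes were chosen by the difference of the parts.

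Taken by their own tests, the PBS part passed in 6 of the 23 higher genes, the LPS part in 12, neither in 5, and both in 0. Of the 7 lower genes, the PBS part passed in 5, the LPS part in 1 and neither in 1. The PBS groups did not overlap in 28 of the 30 genes, with ZT13 below ZT1 in 21 and above in 7, against 9.21% and 9.52% of all genes tested. The LPS groups did not overlap in 13 of the 30, with ZT13 above ZT1 in 12 and below in 1, against 1.55% and 0.408% of all genes. Both separations together, PBS mice lower and LPS mice higher at ZT13, occurred in 10 of the 23 higher genes and in 26 of all genes (0.138%). The median standard error over all genes was 0.107 for the PBS part, 0.083 for the LPS part and 0.135 for the interaction, so the PBS part, from 3 mice a side, carried more of the error.

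**Figure D1:**
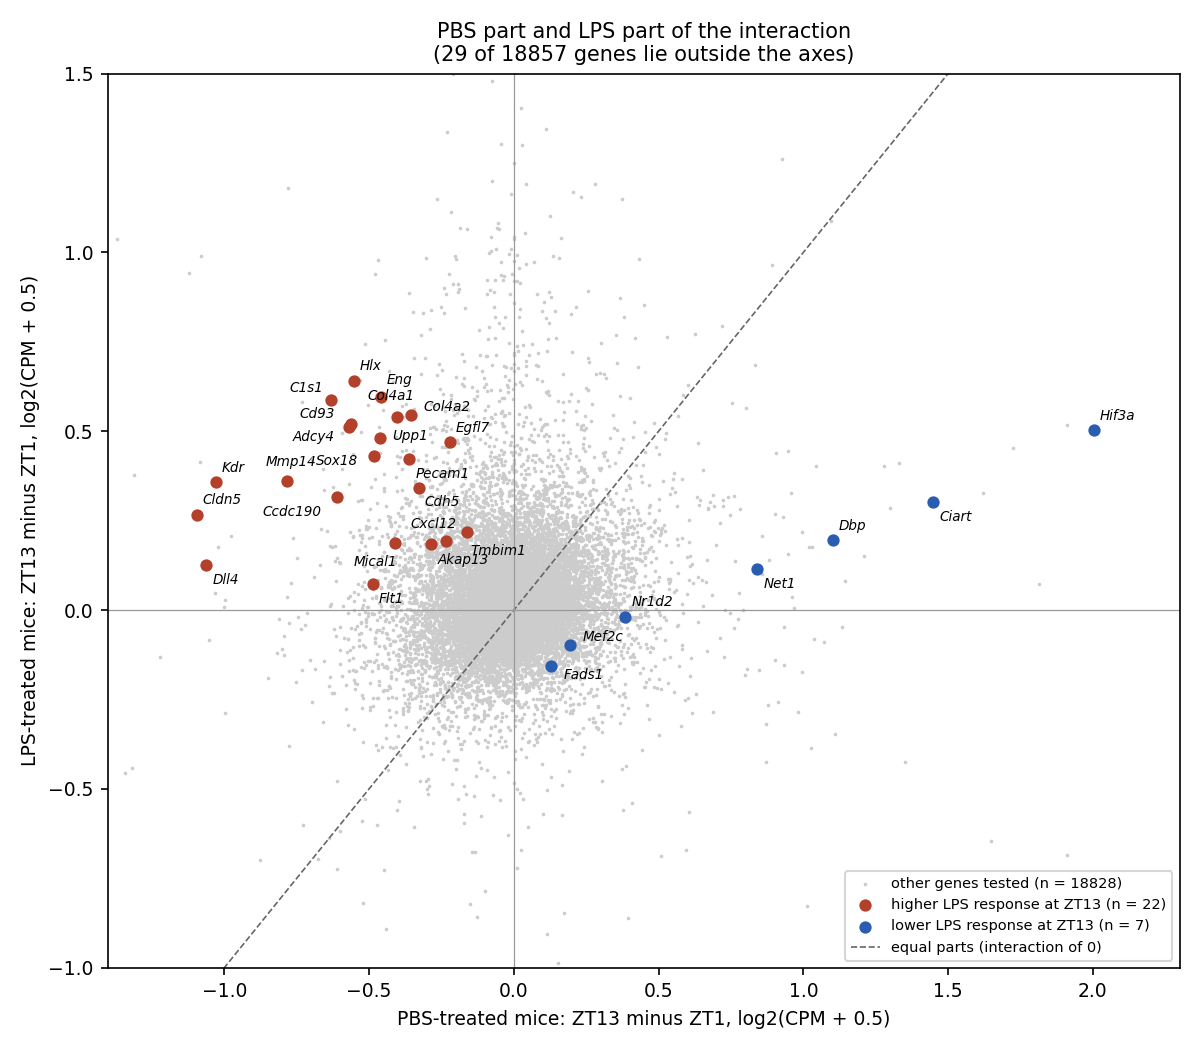
PBS part (x axis) and LPS part (y axis) of the interaction for the genes plotted, each as ZT13 minus ZT1 on the log2(CPM + 0.5) scale. The dashed line marks an interaction of 0, and 29 genes lie outside the axes. The 22 genes plotted with a higher LPS response at ZT13 (red) all sit to the upper left of the crossing of the 0 lines, and the 7 with a lower response (blue) lie to the right of 0 on the x axis.

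The smallest p belonged to *Col4a2*, and *Col4a1* was the third. They encode the chains of type IV collagen, the main network of the vascular basement membrane. *Col4a2* (chr8:11312805-11449287, GRCm38) was 78.6, 88.0 and 85.6 CPM in ZT1 PBS mice and 64.9, 62.3 and 69.7 CPM in ZT13 PBS mice. It was 149.9, 124, 139, 139 and 119 CPM in ZT1 LPS mice and 175, 192, 193, 209.8 and 208 CPM in ZT13 LPS mice. None of the 4 groups overlapped, and the order of the times was turned around between the treatments. LPS multiplied *Col4a2* by 1.59 at ZT1 and by 2.96 at ZT13, and the interaction was 0.90 (SE 0.10, limma adjusted p = 0.00075). *Col4a1* (chr8:11198423-11312826) was 58.2, 66.1 and 60.5 CPM in ZT1 PBS mice, 44.3, 45.6 and 49.5 CPM in ZT13 PBS mice, 167, 116, 134, 144 and 117 CPM in ZT1 LPS mice, and 178, 193, 200.4, 208 and 198 CPM in ZT13 LPS mice. The pattern was that of *Col4a2*, again with no overlap, and the interaction was 0.94 (SE 0.13, limma adjusted p = 0.0038). In both genes the LPS part passed by itself (0.54 in each, limma adjusted p = 0.00072 for *Col4a2* and 0.0069 for *Col4a1*), and the PBS part did not (-0.36, limma adjusted p = 0.068, and -0.40, limma adjusted p = 0.12). The genes lie head to head, with start sites 21 bases apart on opposite strands and overlapping first bases, so any read in the overlap may have been counted for either.

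Receptors and ligands of vessel growth formed the second group. *Kdr* (chr5:75932827-75978458), the main signalling receptor for VEGF, was 16, 16.7 and 14.8 CPM in ZT1 PBS mice and 7.93, 6.61 and 8.02 CPM in ZT13 PBS mice. After LPS it was 18, 9.04, 15.7, 17.4 and 14.8 CPM at ZT1 and 15.4, 20.2, 17.5, 20.8 and 21.0 CPM at ZT13. The PBS groups were far apart and the LPS groups overlapped, with ZT1 LPS replicate 2 well below its group. The interaction of 1.39 (SE 0.23, limma adjusted p = 0.013) was made up of a PBS part of -1.03 (SE 0.18, limma adjusted p = 0.019) and an LPS part of 0.36 (SE 0.14, limma adjusted p = 0.29). *Kdr* therefore did not differ detectably between PBS and LPS at ZT1 (0.924-fold, limma adjusted p = 0.68), and was 2.42-fold higher with LPS at ZT13 (limma adjusted p = 6.9e-06). Without ZT1 PBS replicate 1 or 2, or without ZT13 PBS replicate 2, the adjusted p of the *Kdr* interaction was 0.0506, 0.0547 and 0.0691.

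*Flt1* (chr5:147561604-147726011), the VEGF receptor that acts largely as a decoy, was 62.6, 59.4 and 62.5 CPM in ZT1 PBS mice and 42.2, 41.1 and 48.2 CPM in ZT13 PBS mice. After LPS it ranged from 44.9 to 53.0 CPM at ZT1 and from 46.4 to 59.8 CPM at ZT13. The time difference seen with PBS was not visible with LPS, where the groups overlapped. *Flt1* fell by 0.32 on the log2 scale with LPS at ZT1 and rose by 0.24 at ZT13 (limma adjusted p = 0.0053 and 0.03), an interaction of 0.56 (SE 0.11, limma adjusted p = 0.044). *Dll4* (chr2:119325784-119335962), the endothelial Notch ligand, had the same arrangement. It was 3.90, 3.60 and 3.12 CPM in ZT1 PBS mice and 1.33, 1.53 and 1.43 CPM in ZT13 PBS mice, against 2.52, 3.54, 2.40, 2.58 and 2.31 CPM in ZT1 LPS mice and 2.52, 2.79, 2.60, 3.56 and 3.27 CPM in ZT13 LPS mice. Its interaction was 1.19 (SE 0.19, limma adjusted p = 0.013), and its PBS part was -1.06 (SE 0.15, limma adjusted p = 0.0047) beside an LPS part of 0.13 (SE 0.12, limma adjusted p = 0.76).

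*Eng* (chr2:32646595-32682669), an endothelial co-receptor for TGF-beta ligands, differed from these 3 genes in that LPS mice also separated. It was 19.9, 19.1 and 19.7 CPM in ZT1 PBS mice, 14.5, 12.3 and 15.6 CPM in ZT13 PBS mice, 38.0, 28.6, 32.2, 36.0 and 25.4 CPM in ZT1 LPS mice, and 39.8, 46.7, 49.0, 54.3 and 52.4 CPM in ZT13 LPS mice. Every ZT13 LPS mouse was above every ZT1 LPS mouse, and every ZT13 PBS mouse was below every ZT1 PBS mouse. The interaction was 1.06 (SE 0.16, limma adjusted p = 0.011), with an LPS part of 0.60 (SE 0.10, limma adjusted p = 0.019) and a PBS part of -0.46 (SE 0.13, limma adjusted p = 0.19). Without ZT13 PBS replicate 2 the *Eng* interaction was 0.97 with an adjusted p of 0.0502.

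**Figure D2:**
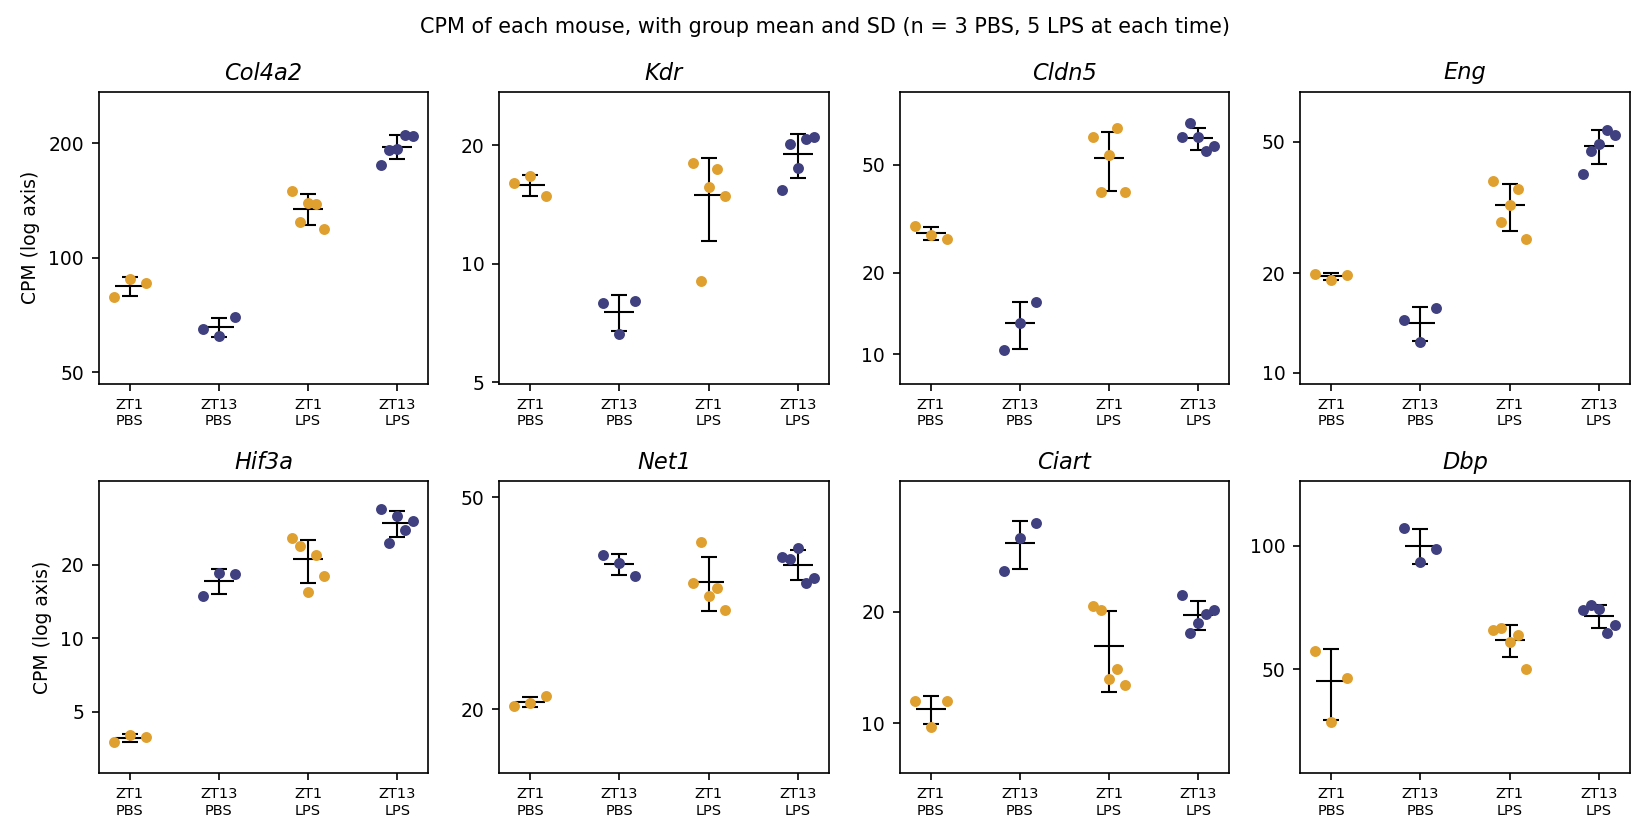
CPM of each mouse (points, log axis) with the group mean and SD (bars) for 4 genes with a higher LPS response at ZT13 (top) and 4 with a lower one (bottom), with 3 PBS and 5 LPS mice at ZT1 (orange) and at ZT13 (navy). In the top row the ZT13 PBS mice lie below the ZT1 PBS mice, and in the bottom row they lie above them. The LPS groups separate by time in *Col4a2* and *Eng* and overlap in the other 6 genes.

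Junction genes of the endothelium were the third group, and 3 of 15 tested passed with a higher response and 0 with a lower one. Over all genes tested the shares were 0.122% and 0.0371%, and the list was chosen with earlier results of these data known. *Cldn5* (chr16:18776847-18778262), the dominant tight junction claudin of the blood-brain barrier (BBB), was 29.7, 27.6 and 26.7 CPM in ZT1 PBS mice and 10.4, 13 and 15.5 CPM in ZT13 PBS mice. After LPS it was 63.4, 39.7, 54.2, 68.4 and 39.7 CPM at ZT1 and 63.5, 71.4, 63.1, 56.4 and 58.6 CPM at ZT13. The ZT13 LPS mice lay within or just above the range of the ZT1 LPS mice, which spread widely. The PBS part made up most of the interaction, at -1.10 (SE 0.17) beside an LPS part of 0.27 (SE 0.13, limma adjusted p = 0.45). Without ZT1 PBS replicate 1 or without ZT13 PBS replicate 2 the adjusted p of the *Cldn5* interaction was 0.0506 and 0.0502.

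In *Cdh5*, the adherens junction VE-cadherin, and *Pecam1*, the adhesion molecule CD31, the parts were of similar size, and only the LPS parts passed. The PBS parts were -0.33 (limma adjusted p = 0.24) for *Cdh5* and -0.36 (limma adjusted p = 0.28) for *Pecam1*. *Pecam1* was 11.4, 13.1 and 12.1 CPM in ZT1 PBS mice, 8.12, 9.20 and 11.1 CPM in ZT13 PBS mice, 38.9, 26, 35.6, 37.7 and 33.6 CPM in ZT1 LPS mice, and 42.9, 46.2, 47.4, 45.0 and 47.4 CPM in ZT13 LPS mice. Neither pair of groups overlapped. Its LPS part was 0.42 (limma adjusted p = 0.043) and its interaction 0.78 (SE 0.15, limma adjusted p = 0.041). *Cdh5* was 10.8 to 12.4 CPM in ZT13 PBS mice and 13.9 to 15.4 CPM in ZT1 PBS mice, 24 to 29.0 CPM in ZT1 LPS mice, and 34.6, 36.5, 34.5 and 37.5 CPM in 4 of the 5 ZT13 LPS mice. The remaining ZT13 LPS mouse, replicate 1, was at 27.0 CPM, within the ZT1 range. Its LPS part was 0.34 (limma adjusted p = 0.049).

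Other endothelial genes among the 23 were *Sox18*, a transcription factor of vessel development, *Egfl7*, a secreted endothelial protein, and *Cd93*, a surface glycoprotein of endothelial and myeloid cells. *Sox18* was 6.36, 6.57 and 6.61 CPM in ZT1 PBS mice, 4.93, 3.93 and 4.75 CPM in ZT13 PBS mice, 8.16 to 11.1 CPM in ZT1 LPS mice and 11.6 to 15.7 CPM in ZT13 LPS mice, with no overlap at either treatment. Its interaction was 0.91 (SE 0.15, limma adjusted p = 0.013). *Egfl7* passed with 0.69 (SE 0.13, limma adjusted p = 0.041), and here the PBS groups overlapped while the LPS groups did not (21.1 to 29.1 CPM at ZT1 and 31.0 to 37.9 CPM at ZT13). *Cd93* combined the interaction with a large rise at both times. It was 5.92 to 6.90 CPM in ZT13 PBS mice, 8.50 to 11.6 CPM in ZT1 PBS mice, 34.2 to 57.6 CPM in ZT1 LPS mice and 55.9 to 64.0 CPM in ZT13 LPS mice. LPS multiplied *Cd93* by 4.27 at ZT1 and by 9.04 at ZT13 (interaction 1.08, SE 0.19, limma adjusted p = 0.019).

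The summed level of all 22 endothelial markers was 302.6, 302.7 and 287 CPM in ZT1 PBS mice. In ZT13 PBS mice it was 233, 222 and 258 CPM, with no overlap. In LPS mice the sum was 378 to 486 CPM at ZT1 and 481 to 544 CPM at ZT13, which overlap. Of the 22, 8 were among the called genes and 14 were not, which is how the 14 were chosen. The sum of the 14 therefore does not stand for the whole list. The summed level of the 14 was 123, 126 and 113 CPM in ZT1 PBS mice and 119, 109.96 and 124 CPM in ZT13 PBS mice, which overlap. In LPS mice it was 215, 175, 192, 209 and 175 CPM at ZT1 and 203, 219.8, 224, 207 and 198 CPM at ZT13, which overlap as well. In bulk tissue, fewer cells of a type and less RNA per cell cannot be told apart. The part of vessel content in the dissected tissue in these results was not tested.

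The endothelial lists were not uniform. Over the 22 markers the median interaction was 0.52, against 0.01 over all genes tested, 19 of 22 had a positive sign, 8 passed with a higher response, and 0 passed with a lower one. All 8 have been described above. Over all 18859 genes tested, 10178 had a positive sign, 0.122% passed with a higher response and 0.0371% with a lower one. The median was 0.25 over 15 genes of VEGF and angiopoietin signalling, of which *Kdr* and *Flt1* passed, and 0.23 over 17 basement membrane genes, of which *Col4a1* and *Col4a2* passed and 16 had a positive sign. It was 0.10 over 23 genes of vessel Notch and TGF-beta signalling, of which *Dll4* and *Eng* passed, and 0.13 over the junction genes. In contrast, the 23 transporters and transcytosis genes of the BBB had a median of -0.01 and 11 of 23 positive signs. None was called in the interaction by limma. An unadjusted p under 0.05 in the interaction was seen in 6 of the 23, against 9.25% of all genes tested. One of the 23, *Slc2a1*, the glucose transporter GLUT1, was higher at ZT13 in PBS mice by 0.49 (limma adjusted p = 0.031). This direction is opposite to that of *Cldn5*. The 13 mural cell genes had a median interaction of 0.22, no call and 3 at an unadjusted p under 0.05.

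The other genes with a higher response at ZT13 had varied roles. *Mmp14* (chr14:54431612-54445364), a membrane-bound matrix metalloproteinase that cuts collagen, was 11.6, 14.6 and 11.2 CPM in ZT1 PBS mice and 7.06, 6.98 and 6.85 CPM in ZT13 PBS mice. With LPS the values were 26.4, 14.2, 18.1, 19.8 and 16.3 CPM at ZT1 and 22.5, 24, 23.9, 27.0 and 22.7 CPM at ZT13. Only ZT1 LPS replicate 1 reached the ZT13 LPS range. LPS multiplied *Mmp14* by 1.48 at ZT1 and by 3.28 at ZT13 (interaction 1.14, SE 0.19, limma adjusted p = 0.016).

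*C1s1*, which encodes the C1s protease of the classical complement pathway, was 0.642 to 1.18 CPM in ZT1 PBS mice and 0.358 to 0.416 CPM in ZT13 PBS mice. It was 2.99 to 5.32 CPM in ZT1 LPS mice and 5.49 to 7.30 CPM in ZT13 LPS mice. All 4 groups were separate, at low levels in PBS mice. *Upp1*, uridine phosphorylase, behaved alike, with 0.758 to 0.938, 0.358 to 0.607, 2.52 to 3.23 and 3.68 to 5.0 CPM in ZT1 PBS, ZT13 PBS, ZT1 LPS and ZT13 LPS mice (interaction 0.94, SE 0.18, limma adjusted p = 0.042). *Hlx*, a homeobox transcription factor, was 0.889 to 1.53 CPM in ZT1 PBS mice, 0.555 to 0.851 CPM in ZT13 PBS mice, 1.51 to 2.42 CPM in ZT1 LPS mice and 2.85 to 3.64 CPM in ZT13 LPS mice (interaction 1.19, SE 0.22, limma adjusted p = 0.033). Both pairs of *Hlx* groups were separate. *Adcy4*, an adenylyl cyclase, was 6.58 to 7.65 CPM in ZT1 LPS mice and 9.20 to 12.8 CPM in ZT13 LPS mice, with an interaction of 1.08 (SE 0.20, limma adjusted p = 0.036).

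*Cxcl12*, a chemokine made by vessels and stroma, was the one gene of the 23 with an LPS response below 0 at both times. It was 39.9, 40.6 and 38.1 CPM in ZT1 PBS mice, 34.8, 30.4 and 32.1 CPM in ZT13 PBS mice, 24.2 to 27.8 CPM in ZT1 LPS mice and 26.5 to 31.6 CPM in ZT13 LPS mice. *Cxcl12* fell by 0.64 on the log2 scale at ZT1 (limma adjusted p = 9.8e-07), and the change at ZT13 was -0.17 (limma adjusted p = 0.06). The higher value of its interaction, 0.47 (SE 0.09, limma adjusted p = 0.042), was thus a smaller decrease at ZT13.

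Some of the remaining genes changed little in size but had little spread. *Akap13* (chr7:75455534-75754609), a scaffold for protein kinase A, was 66.6, 71.2 and 68.9 CPM in ZT1 PBS mice, 61.2, 56.8 and 57.5 CPM in ZT13 PBS mice, 80.9, 77.8, 74.0, 83.8 and 79.1 CPM in ZT1 LPS mice, and 89.2, 87.5, 89.9, 94.7 and 91.1 CPM in ZT13 LPS mice. The 4 groups did not overlap, although LPS multiplied the gene by only 1.15 at ZT1 and 1.54 at ZT13 (interaction 0.43, SE 0.06, limma adjusted p = 0.0062). *Ccdc190*, a coiled-coil gene, was 8.01 to 8.44 CPM in ZT1 PBS mice and 5.0 to 5.40 CPM in ZT13 PBS mice, with a PBS part of -0.61 (limma adjusted p = 0.026), while the LPS groups overlapped. *Mical1*, which oxidizes actin, and *Tmbim1*, a membrane protein of the endolysosome, passed with 0.60 and 0.38 (limma adjusted p = 0.036 and 0.041), and the LPS groups overlapped in each.

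**Figure D3:**
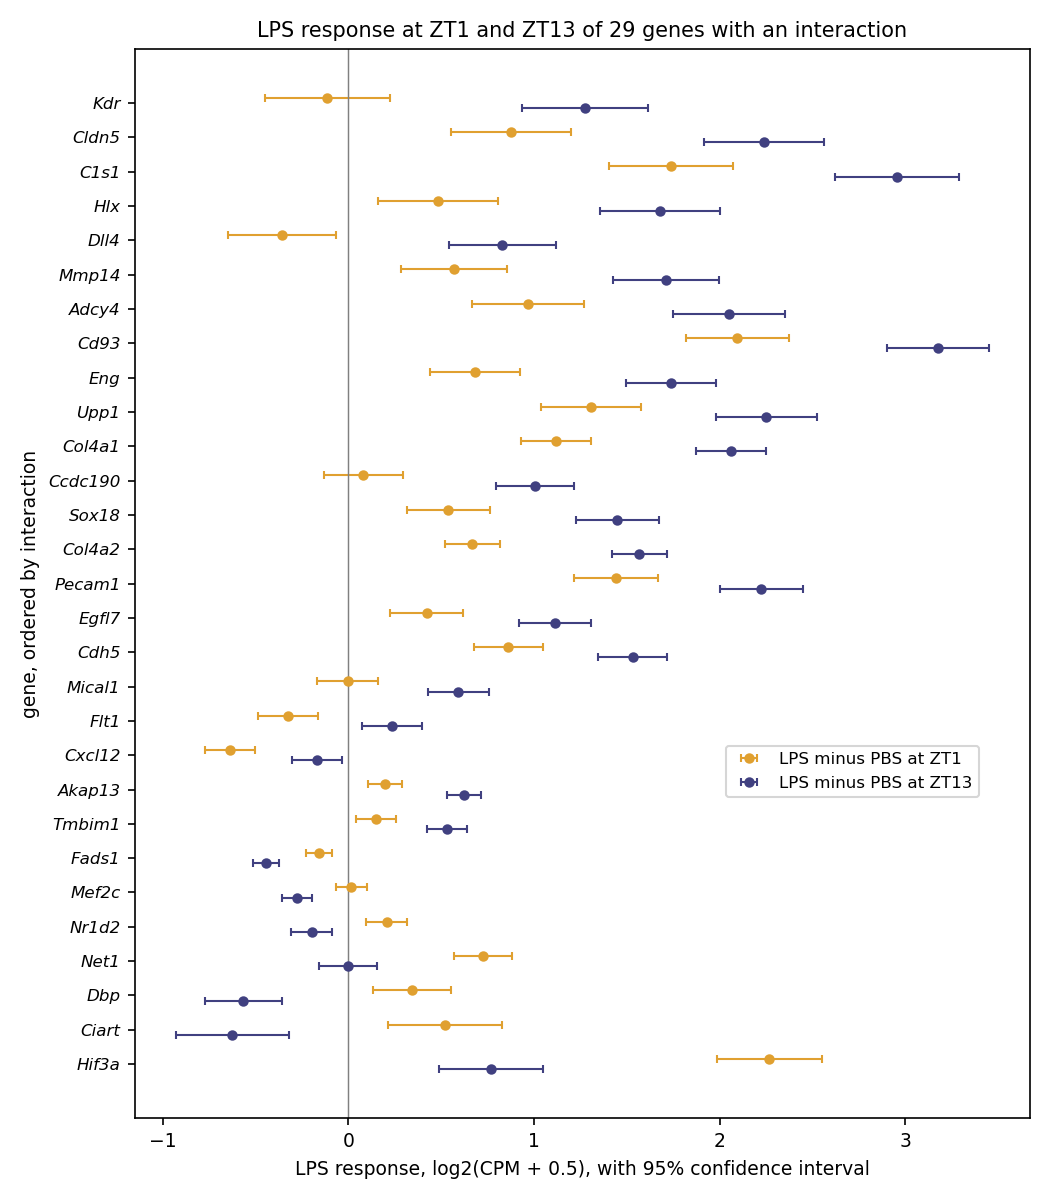
LPS response (LPS minus PBS, log2(CPM + 0.5), with 95% confidence interval) at ZT1 (orange) and at ZT13 (navy) for 29 of the 30 genes with an interaction, ordered by its size. From *Kdr* to *Tmbim1* the ZT13 response is the higher one, and from *Fads1* to *Hif3a* the lower one. *Kdr*, *Dll4* and *Flt1* have an estimate below 0 at ZT1 and above 0 at ZT13, and *Nr1d2*, *Dbp* and *Ciart* the reverse. *Mical1*, *Mef2c* and *Net1* also change sign, each with an estimate within 0.02 of 0 at ZT1 or ZT13.

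Of the 7 genes with a lower response at ZT13, 3 belong to the clock and *Hif3a* to the glucocorticoid-responsive list. *Ciart* (chr3:95878503-95882251), a repressor of CLOCK and BMAL1, was 11.4, 9.78 and 11.5 CPM in ZT1 PBS mice and 25.8, 31.6 and 34.8 CPM in ZT13 PBS mice. After LPS it was 20.8, 20.2, 13.2, 14 and 12.6 CPM at ZT1 and 22.2, 17.5, 18.7, 19.7 and 20.2 CPM at ZT13. Each LPS mouse lay between the PBS groups, above every ZT1 PBS mouse and below every ZT13 PBS mouse. The PBS part was 1.45 (SE 0.16) and the LPS part 0.30 (SE 0.13, limma adjusted p = 0.32). *Dbp* (chr7:45705088-45710203), a transcription factor of clock output, was 55.5, 37.3 and 47.6 CPM in ZT1 PBS mice, 111, 91.5 and 98.0 CPM in ZT13 PBS mice, 62.2, 63.0, 58.3, 60.5 and 50.1 CPM in ZT1 LPS mice, and 69.7, 71.6, 70.0, 61.5 and 64.0 CPM in ZT13 LPS mice. LPS mice of both times were below all ZT13 PBS mice, and the LPS part was 0.20 (SE 0.09, limma adjusted p = 0.36) beside a PBS part of 1.10 (SE 0.11).

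*Nr1d2* (chr14:18204054-18239127), the repressor REV-ERB beta, was 70.2, 58.3 and 66.5 CPM in ZT1 PBS mice and 87.6, 83.4 and 83.5 CPM in ZT13 PBS mice. It ranged from 72.2 to 79.3 CPM in ZT1 LPS mice and from 71.4 to 79.3 CPM in ZT13 LPS mice. The groups of LPS mice covered nearly the same range, with an LPS part of -0.02 (SE 0.05, limma adjusted p = 0.92) beside a PBS part of 0.39 (SE 0.06, limma adjusted p = 0.0081). *Nr1d2* rose with LPS at ZT1 by 0.21 on the log2 scale and fell by 0.20 at ZT13 (limma adjusted p = 0.0088 and 0.0089), an interaction of -0.40 (SE 0.07, limma adjusted p = 0.036).

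Because clock genes were among the called genes, the bases before the start sites of the called genes were searched for short motifs of clock and hormone regulators. RefSeq windows (GRCm38.p6, 250 bases before a start site) were at hand for 24 of the 30 genes, some with windows at several start sites, and a gene was counted when any of its windows held the motif. The E-box CACGTG, the letters that CLOCK and BMAL1 bind, was in 1978 of 32851 windows on either strand (6.02%) and in those of *Ciart* and *Net1* among the 24. AGGTCA, the core of sites for REV-ERB and ROR proteins, was in 14% of all windows and in 4 of the 24 (*Ccdc190*, *Egfl7*, *Mef2c* and *Nr1d2*). TGTTCT, a part of glucocorticoid receptor sites, was in 16.1% and in 5 of the 24 (*Akap13*, *C1s1*, *Ccdc190*, *Egfl7* and *Mef2c*). The shares are per window and the counts are per gene, so they are not on the same footing. Whether any motif was more frequent in the called genes was not tested, nor was its part in their time differences. The windows of *Ciart* (chr3:95882252-95882478, minus strand), *Net1* (chr13:3893582-3893831, minus strand) and *Nr1d2* (chr14:18239128-18239356, minus strand) are shown for the clock motifs in genes whose time difference in PBS mice was not detectable in LPS mice, with the motif in capitals and bases in annotated exons left out. *Ciart* holds 3 E-boxes at 39 to 111 bases before its start, *Net1* holds 1 at 16 bases before an internal start that lies 24639 bases inside the gene, and *Nr1d2* holds AGGTCA at 72 bases.
Ciart: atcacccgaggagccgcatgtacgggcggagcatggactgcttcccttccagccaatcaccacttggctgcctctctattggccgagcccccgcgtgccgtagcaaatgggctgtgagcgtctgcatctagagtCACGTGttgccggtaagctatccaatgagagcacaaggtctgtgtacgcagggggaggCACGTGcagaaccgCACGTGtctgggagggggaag
Net1: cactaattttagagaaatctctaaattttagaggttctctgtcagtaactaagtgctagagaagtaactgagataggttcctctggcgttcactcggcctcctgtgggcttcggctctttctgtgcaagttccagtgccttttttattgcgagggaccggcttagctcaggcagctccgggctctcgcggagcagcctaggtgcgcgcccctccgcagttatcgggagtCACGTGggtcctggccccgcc
Nr1d2: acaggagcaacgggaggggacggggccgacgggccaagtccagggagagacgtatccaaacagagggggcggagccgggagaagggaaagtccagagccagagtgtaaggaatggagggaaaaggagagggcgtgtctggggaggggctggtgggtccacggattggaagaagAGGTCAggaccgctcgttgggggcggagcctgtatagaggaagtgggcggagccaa

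*Hif3a* (chr7:17031507-17062427), a subunit of the hypoxia-inducible factors, had the largest interaction of the 30 in size. It was 3.75, 4.0 and 3.96 CPM in ZT1 PBS mice, 14.8, 18.5 and 18.3 CPM in ZT13 PBS mice, 25.9, 23.9, 15.5, 21.9 and 18 CPM in ZT1 LPS mice, and 33.9, 24.7, 31.9, 27.8 and 30.4 CPM in ZT13 LPS mice. LPS mice were higher than PBS mice at both times on average, by 4.82-fold at ZT1 and 1.7-fold at ZT13, an interaction of -1.50 (SE 0.19, limma adjusted p = 0.0026). *Net1* (chr13:3882018-3918220), a guanine nucleotide exchange factor, was 20.3, 20.5 and 21.1 CPM in ZT1 PBS mice and 38.9, 37.7 and 35.6 CPM in ZT13 PBS mice. In LPS mice the values were 34.5, 41.2, 32.7, 33.8 and 30.7 CPM at ZT1 and 38.6, 38.3, 40.1, 34.5 and 35.3 CPM at ZT13. The ZT1 PBS mice stood apart from all other mice. LPS raised *Net1* by 0.72 on the log2 scale at ZT1 (limma adjusted p = 1.2e-06), and the difference at ZT13 was -0.00 (SE 0.07), for an interaction of -0.73 (SE 0.10, limma adjusted p = 0.0062).

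*Fads1* and *Mef2c* had the smallest interactions of the 7, at -0.28 and -0.29. *Fads1* (chr19:10182888-10196877), a desaturase of fatty acids, was 161 to 166 CPM in ZT1 PBS mice and 177 to 179.8 CPM in ZT13 PBS mice, and 142 to 148 CPM in ZT1 LPS mice and 127 to 138 CPM in ZT13 LPS mice. It was the single one of the 7 with an LPS part past the threshold, -0.16 (SE 0.03, limma adjusted p = 0.029). *Mef2c* (chr13:83504034-83667080), a transcription factor of neurons, microglia and vessels, was 563 to 601 CPM in ZT1 PBS mice, 641 to 674 CPM in ZT13 PBS mice, 554 to 604 CPM in ZT1 LPS mice and 514 to 579 CPM in ZT13 LPS mice. LPS lowered *Mef2c* at ZT13 by 0.28 (limma adjusted p = 2.5e-05), and the difference at ZT1 was 0.02 (limma adjusted p = 0.83).

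The PBS part by itself passed for 43 genes (0.228%), 31 higher at ZT13 (0.164%) and 12 lower (0.0636%). Besides *Hif3a*, *Ciart* and *Dbp*, the 5 largest increases held *Plin4*, a lipid droplet protein, at 1.33 (SE 0.23, limma adjusted p = 0.019), and *Gm42791*, which was listed at 0 in the 3 ZT1 PBS mice and at 3.31, 2.96 and 2.04 CPM in the ZT13 PBS mice. The largest decreases were *Cldn5*, *Dll4*, *Kdr*, *Slc6a13* and *Mmp14*. *Slc6a13*, a GABA and taurine transporter of leptomeninges, was 9.52, 12.7 and 9.56 CPM in ZT1 PBS mice and 4.86, 7.26 and 5.55 CPM in ZT13 PBS mice. Its PBS part was -0.80 (SE 0.13, limma adjusted p = 0.013), and after LPS both groups lay between 8.13 and 10.3 CPM.

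In LPS mice, none of these 43 genes passed limma's test. Of the 31 that were higher at ZT13 with PBS, 29 had an LPS part of the same sign. The medians were 0.55 with PBS and 0.11 with LPS, and 13 of the 31 reached an unadjusted p under 0.05. Of the 12 that were lower, 6 had the same sign, with medians of -0.60 and 0.03, and 2 reached an unadjusted p under 0.05. The genes were chosen by their PBS part, which enlarges the PBS medians but not the LPS medians, so these medians are not compared. The interaction itself passed in 5 of the 31 and 6 of the 12, so for the other 32 genes a difference between the parts was not shown.

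Of 16 core clock genes, *Ciart* and *Nr1d2* passed in the interaction and *Arntl* passed in the PBS part besides them, at -0.60 (SE 0.08, limma adjusted p = 0.0018). In LPS mice *Arntl* was 29.9, 31.6, 35.5, 34.0 and 37.2 CPM at ZT1 and 27.9, 31.1, 27.8, 31.5 and 32.8 CPM at ZT13, which overlap, and its interaction was 0.45 (SE 0.10, limma adjusted p = 0.10). The median over the 16 genes was 0.20 for the PBS part and 0.02 for the LPS part. Among 8 clock outputs, *Usp2*, a deubiquitinase, was 56.5, 61.9 and 59.7 CPM in ZT1 PBS mice and 88.6, 88.2 and 87.2 CPM in ZT13 PBS mice (PBS part 0.57, limma adjusted p = 0.0003). After LPS it was 65.8 to 78.9 CPM at ZT1 and 74.8 to 89.2 CPM at ZT13, and its interaction of -0.38 had an adjusted p of 0.087 in the limma fit.

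In the glucocorticoid-responsive list 5 of 18 genes passed in the PBS part, all higher at ZT13 (*Hif3a*, *Plin4*, *Sgk1*, *Tsc22d3* and *Klf9*). The clock output list gave 3 of 8, also higher, against 0.164% of all genes tested. *Sgk1* is a kinase, *Tsc22d3* the anti-inflammatory protein GILZ and *Klf9* a transcription factor, all known to be induced by glucocorticoids. *Tsc22d3* was 30.7, 32.6 and 40.4 CPM in ZT1 PBS mice, 54.7, 69.1 and 65.0 CPM in ZT13 PBS mice, 42.3 to 66.3 CPM in ZT1 LPS mice and 46.1 to 65.1 CPM in ZT13 LPS mice. The median over the 18 genes was 0.46 in the PBS part, 0.19 in the LPS part and -0.26 in the interaction. Only *Hif3a* passed in the interaction. Summed over the list, the ZT1 PBS mice were at 773, 774 and 859.9 CPM and the ZT13 PBS mice at 939, 1206 and 1214 CPM. The ZT1 LPS mice were at 1175 to 1817 CPM, which overlapped the ZT13 PBS mice. The ZT13 LPS mice were at 1394.6 to 1653.5 CPM, above every PBS mouse.

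The LPS part by itself passed for 122 genes (0.647%), 114 of them higher at ZT13 (0.604%) and 8 lower (0.0424%). By limma none of the 122 passed in the PBS part, where 4 of the 114 and 0 of the 8 had the same sign at an unadjusted p under 0.05, and 12 of the 114 and 1 of the 8 passed in the interaction. The PBS medians of these genes were -0.04 and 0.02, and the choice by the LPS part enlarges only the LPS medians. The 5 largest increases included *Chil3*, *Mmp8*, *Il1r2* and *Hp*.

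*Il1r2*, the decoy receptor of interleukin-1, was 2.80, 1.61, 1.13, 2.42 and 0.680 CPM in ZT1 LPS mice and 7.17, 4.68, 11.4, 9.21 and 3.49 CPM in ZT13 LPS mice, with no overlap (LPS part 1.78, SE 0.28, limma adjusted p = 0.013). *Mmp8*, the collagenase of neutrophils, was 3.45, 0.940, 1.72, 3.26 and 0.952 CPM in ZT1 LPS mice and 7.93, 6.02, 11.8, 11.3 and 4.30 CPM in ZT13 LPS mice (LPS part 1.82, SE 0.29, limma adjusted p = 0.013). It was listed at 0 in 5 of the 6 PBS mice, so no fold over PBS is given. *Chil3* and *Hp*, 2 further genes of myeloid cells and the acute phase, had LPS parts of 2.11 and 1.62 (limma adjusted p = 0.037 and 0.047). *Cd14*, a co-receptor for LPS, was 4.76, 1.61, 3.43, 6.34 and 3.85 CPM in ZT1 LPS mice and 7.40, 8.47, 8.72, 10.5 and 9.22 CPM in ZT13 LPS mice (LPS part 1.15, SE 0.21, limma adjusted p = 0.030). In *Cd14* the PBS part was positive too (0.37), and the interaction was 0.78 (SE 0.35, limma adjusted p = 0.50).

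Among the genes lower at ZT13 in LPS mice, *Fmod*, a proteoglycan of fibroblasts, was 13.2, 11.6, 11.7, 12.8 and 14.4 CPM at ZT1 and 7.17, 7.0, 7.84, 7.69 and 9.22 CPM at ZT13 (LPS part -0.68, SE 0.09, limma adjusted p = 0.0057). *Siglech*, a marker of homeostatic microglia, was 1.21 to 2.40 CPM at ZT1 and 0.545 to 1.43 CPM at ZT13, from 6.05 to 7.25 CPM in PBS mice (LPS part -0.78, SE 0.17, limma adjusted p = 0.042). *Cort*, the neuropeptide cortistatin, had an LPS part of -0.72 (limma adjusted p = 0.047). The mitochondrial ribosomal RNA *mt-Rnr1* was 13.8 to 38.4 CPM in ZT1 LPS mice and 7.39 to 12.7 CPM in ZT13 LPS mice (LPS part -0.91, limma adjusted p = 0.039). Replicate 4 alone stood at 38.4 CPM, and the other ZT1 LPS mice were at 13.8 to 19.7 CPM. The libraries were made with removal of ribosomal RNA (KAPA RiboErase), and the part of that step in *mt-Rnr1* was not tested. *Fam205a2* passed with 1.59 to 13.4 CPM in the ZT1 LPS mice and was listed at 0 in 4 of the 5 ZT13 LPS mice, so no size is given.

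Of the immune genes listed, *C1s1* and *Cd93* passed in the interaction. Over 19 inflammatory mediators the median was 0.77 in the LPS part, -0.04 in the PBS part and 0.78 in the interaction. In the LPS part 7 passed as higher (*Tnf*, *Mmp8*, *Mmp9*, *Cd14*, *Stab1*, *Lcn2* and *Lrg1*), against 0.604% of all genes tested. *Tnf* averaged at most 0.014 CPM in the PBS groups, 0.34 CPM in ZT1 LPS mice and 1.11 CPM in ZT13 LPS mice. It reached the level needed for testing only with the ZT13 LPS mice, where it was called higher. Over 8 neutrophil genes the medians were 1.32, -0.13 and 1.49, and *Retnlg*, *Mmp8* and *Mmp9* passed in the LPS part. Only 19 of 27 inflammatory and 8 of 13 neutrophil genes listed reached the level needed for testing, several through the LPS mice alone, and near 0 in PBS mice the log2 values depend on the constant of 0.5. These medians and counts of calls therefore support no statement about the 2 lists. Of 9 leukocyte adhesion genes, *Selp*, P-selectin, passed in the LPS part (1.05, limma adjusted p = 0.029), and all 9 had a positive interaction sign. *Selp* averaged 0.030 and 0.045 CPM in ZT1 and ZT13 PBS mice, so it was tested through the LPS mice. The 16 complement genes had a median interaction of 0.33 and 14 positive signs. Over all 18859 genes tested, 10178 had a positive sign. The 18 interferon-stimulated genes had a median of -0.03 in the LPS part, a median interaction of 0.13, no call by limma in any of the 3 contrasts, and 0 at an unadjusted p under 0.05 in the interaction.

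**Figure D4:**
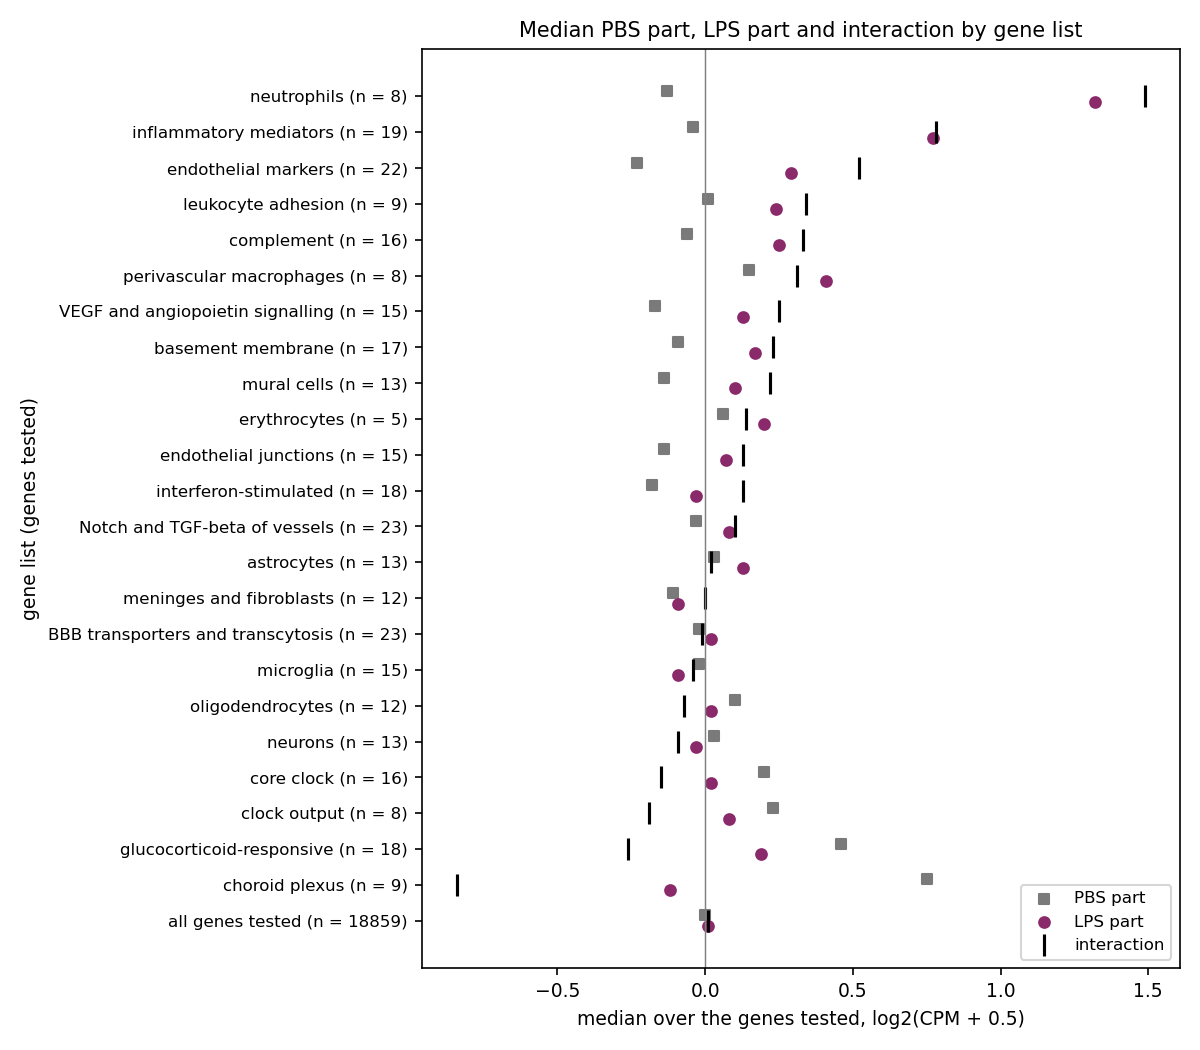
Median PBS part (grey squares), LPS part (purple circles) and interaction (black bars) over the tested genes of each list with at least 5, on the log2(CPM + 0.5) scale. The bottom row gives all 18859 genes. Endothelial markers have parts of opposite sign, and the clock and glucocorticoid-responsive lists have positive PBS parts above smaller LPS parts. Neutrophil and inflammatory lists have LPS parts of 1.32 and 0.77. Several of their genes were near 0 in PBS mice and tested through the LPS mice alone. Their medians support no statement about the lists.

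*Nos2*, inducible nitric oxide synthase, was 0.444 to 0.937 CPM in ZT1 PBS mice and 0.114 to 0.358 CPM in ZT13 PBS mice, against 1.91, 0.716, 0.653, 1.65 and 0.861 CPM in ZT1 LPS mice and 2.61, 3.22, 4.70, 4.96 and 1.3 CPM in ZT13 LPS mice. The interaction of *Nos2* was larger than that of any of the 30 called genes, at 1.96, but its SE was 0.45 and its adjusted p 0.10 in the limma fit. In ZT13 PBS replicates 1 and 2 *Nos2* stood at 0.114 and 0.139 CPM, the level of 3 reads, so this size depends on the constant of 0.5. *Stab1*, a scavenger receptor of macrophages and some endothelium, and *Vasp*, an actin regulator, had interactions of 0.75 and 0.76 (limma adjusted p = 0.077 and 0.16). *Stab1* was 57.4 to 84.8 CPM in ZT1 LPS mice and 84.0 to 118 CPM in ZT13 LPS mice, with an LPS part of 0.51 (limma adjusted p = 0.031).

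The 10 genes next in order after the 30 had adjusted p of 0.052 to 0.077. They included the endothelial receptor *Robo4* (0.77), the tricellular junction gene *Lsr* (0.76), the basement membrane gene *Nid1* (0.50), *Stab1* and the endothelial *Arap3* (0.72), as well as *Tnfaip3* (0.78), a brake on NF-kB, and *Sox9* (0.40), an astrocyte factor. The 3 with a negative interaction were *Actg1* (-0.21), *Idh3a* (-0.22) and *Mertk* (-0.49). *Mertk*, a receptor for the uptake of dying cells, was 36.9, 37.2 and 37.5 CPM in ZT1 PBS mice and 47.9, 54.0 and 56.0 CPM in ZT13 PBS mice, and both LPS groups lay between 38.2 and 48.7 CPM. Its PBS part of 0.49 passed (limma adjusted p = 0.013) beside an LPS part of 0.00 (SE 0.06).

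Markers of other cells gave no call in the interaction by limma. The median interaction was 0.02 over 13 astrocyte genes, -0.04 over 15 microglial genes, -0.09 over 13 neuronal genes and -0.07 over 12 oligodendrocyte genes, and 5, 2, 1 and 1 of them had an unadjusted p under 0.05, against 9.25% of all genes. The 12 genes of meninges and fibroblasts had a median interaction of 0.00, with 6 at an unadjusted p under 0.05 in mixed directions, among them *Dcn* (0.60) and *Slc6a13* (0.69) above 0 and *Fmod* (-0.54) below. The summed level of 13 neutrophil genes was 5.0 to 6.81 CPM in the 6 PBS mice, 91.0, 19.7, 38.5, 80.5 and 26.1 CPM in ZT1 LPS mice and 109, 94.9, 156, 154 and 63.1 CPM in ZT13 LPS mice, and its part in the LPS results above was not tested. Of the 13, 3 were listed at 0 in all PBS mice, among them the chemokine receptor *Cxcr2*. Choroid plexus genes varied between mice rather than between groups. Their summed level was 18.1, 953 and 24.5 CPM in ZT1 PBS mice, 1005, 19.6 and 569.6 CPM in ZT13 PBS mice, 20.4 to 891 CPM in ZT1 LPS mice and 40.4 to 609 CPM in ZT13 LPS mice, and the 9 genes had a median interaction of -0.84 with no call.

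The number of genes passing depended on single mice and on the method. It was 7 without ZT13 PBS replicate 2 and 104 without ZT1 LPS replicate 1, and 7 of the 30 genes (*Col4a2*, *Hif3a*, *Col4a1*, *Net1*, *Akap13*, *Ccdc190* and *Dbp*) passed whichever of the 16 mice was left out. By contrast, *Hlx*, *C1s1*, *Nr1d2*, *Mical1*, *Adcy4*, *Cdh5*, *Mef2c*, *Egfl7*, *Tmbim1*, *Pecam1*, *Cxcl12*, *Upp1* and *Flt1*, 13 of the 30, passed in under 8 of the 16 fits.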

How the data were processed

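Total RNA (PureLink) of the cortex was made into KAPA RiboErase libraries by the authors from 1 µg of RNA. The submitters' processing notes name bcl2fastq, DRAGEN 4.0.3-8 and GRCm38, and the counting tool is not given in the sources used here. The deposited values are CPM per gene (each sample sums to 1000000), normalized by the authors. The table has 55774 lines for 55487 gene IDs (287 repeats with the same values were removed), of which 55141 are in GENCODE M21. Between 81.8% and 83.5% of values of up to 20 reads came out whole within 0.02 reads, too few for a count test.

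The 18859 genes that reached 1 CPM in 3 or more libraries were tested as log2(CPM + 0.5), which understates changes of low genes, with limma 3.58.1 (R 4.3.3, trend, 4 group means, 12 residual degrees of freedom). Plots were drawn with matplotlib 3.10.9 and tables made with pandas 2.3.3 (numpy 2.4.6) in Python 3.11.15. Code was tested on simulated data. Each mouse counted as 1 replicate, and no 2 libraries of a group agreed within sampling noise (lowest chi-square per degree of freedom 4.19). The treatments come from the titles. Named genes were the 30 called, the next 10, 7 genes that the study names, 2 per list, the 5 largest changes of each part in each direction, and label checks, except 2 that are not reported here; genes such as *Slc2a1*, *Selp*, *Sgk1* and *Klf9* were added as the called members of lists. The members and gene lists were chosen with earlier results of these data known. Alternatives changed the constant, filter, scaling, variance model, replicate block, GC content and length, and mice left out. Promoter sequences are RefSeq's (GRCm38.p6). Precision rests on 3 or 5 mice per group.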

Additional observations from a re-analysis of the deposited data

Results flagged for a closer look

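The difference between the LPS responses at ZT13 and ZT1 passed limma's test of the interaction itself for 30 genes, and 29 of them are given here by their interaction on the log2 scale. Higher at ZT13 were *Kdr* (1.39), *Cldn5* (1.36), *C1s1* (1.22), *Hlx* (1.19), *Dll4* (1.19), *Mmp14* (1.14), *Adcy4* (1.08), *Cd93* (1.08), *Eng* (1.06), *Upp1* (0.94), *Col4a1* (0.94), *Ccdc190* (0.93), *Sox18* (0.91), *Col4a2* (0.90), *Pecam1* (0.78), *Egfl7* (0.69), *Cdh5* (0.67), *Mical1* (0.60), *Flt1* (0.56), *Cxcl12* (0.47), *Akap13* (0.43) and *Tmbim1* (0.38). Lower at ZT13 were *Hif3a* (-1.50), *Ciart* (-1.15), *Dbp* (-0.91), *Net1* (-0.73), *Nr1d2* (-0.40), *Mef2c* (-0.29) and *Fads1* (-0.28).

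In 11 of the 168 groups of 5 LPS mice examined over the named genes, 1 mouse stood apart from the other 4 by more than Dixon's critical share of the range (0.71); chance alone gives about 1 in 20. ZT1 LPS replicate 2 was apart for *Kdr* (9.04 CPM), *Dll4* (3.54 CPM) and *Icam2* (2.01 CPM), and ZT1 LPS replicate 1 for *Cxcl12* (27.8 CPM), *Mertk* (38.2 CPM) and *Dcn* (31.8 CPM). These mice also had the lowest sample weights in the fit that weighted libraries by their spread, 0.404 and 0.559. ZT13 LPS replicate 1 was apart for *Cdh5* (27.0 CPM), ZT13 LPS replicate 5 for *Cavin1* (44.0 CPM) and *Pdgfrb* (38.2 CPM), and ZT13 LPS replicate 2 for *Gm42791* (0 CPM) and *Fam205a2* (1.32 CPM).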

How the results depend on the processing

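The counts of genes passing were 30 for the TOD x treatment interaction, 43 for the PBS part and 122 for the LPS part. In the same order they were 12, 22 and 7 with all genes above 0 CPM tested, 124, 171 and 482 with sample weights, 11, 21 and 10 without an intensity trend, and 5, 11 and 6 by 2-way ANOVA. The LPS part gave 56 with a constant of 0.1 and 74 with GC content and length trends removed. With only the 2 groups compared, the PBS part gave 98 and the LPS part 4. The cause of these moves was not tested. With 1 mouse left out the counts ranged over 7 to 104, 11 to 83 and 6 to 649. The interaction count moved by over 1.5 times without any of the ZT1 PBS mice (13, 13 and 14), without ZT13 PBS replicate 2 (7), without ZT1 LPS replicates 1, 3 or 5 (104, 18 and 18), and without ZT13 LPS replicates 4 or 5 (17 and 19). Of the 30 genes, 7 remained called without ZT13 PBS replicate 2, and 12, 13 and 14 without each ZT1 PBS mouse. Of the 30 interactions, 76.7% were higher at ZT13, against 65.0% of 20 with quantile scaling, 63.0% of 27 with GC content and length removed, 66.7% of 12 with all genes and 60% of 5 by ANOVA. For the LPS part, 93.4% were higher, against 79.7% with GC content and length removed. Over all settings, 2466 values of named genes were recomputed: 0 turned their direction, 449 lost their call and 57 gained one. *Col4a2* and *Akap13* passed in all 11 alternatives with every mouse.

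The labels do not say what the replicate numbers of the titles mark, and deviations of mice with the same number did not go together (r of -0.20 to 0.33 over 20 pairs, median -0.01). With the replicate number as a block, 25 interactions passed, 21 of them among the 30, and 42 genes passed in the PBS part and 229 in the LPS part.

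The genes were tested on CPM, not on counts, so the spread of low genes is modelled by the trend of variance with level. With 3 PBS mice and 5 LPS mice a side, a part that did not pass is not shown to be 0.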
